A study of Mus musculus with 10 samples.

Results

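The genes described here are 9 genes of myelin and of the oligodendrocyte lineage, *Mbp*, *Mog*, *Mobp*, *Mag*, *Mal*, *Cldn11*, *Cnp*, *Olig1* and *Olig2*. They were measured in the cerebral cortex of p97FE65 null and wild type mice. Every probe set annotated to one of them was taken, which gave 21 of the 22626 probe sets tested, and 9 of the 12393 genes that have a probe set. *Mbp* had 8 probe sets, *Mobp* and *Cnp* had 3 each, *Mal* had 2, and the other 5 genes had 1 each. None of the 21 was annotated to a second gene. There were 10 Affymetrix mouse arrays, 1 per animal, of which 5 are labelled null and 5 are labelled wild type. All the mice were males of 6 months. The null mice lack the full-length isoform of the adaptor protein FE65 (gene symbol *Apbb1*) because 1 exon is skipped, and they still make the rest of the transcript. The line was made in R1 embryonic stem cells and crossed back to C57Bl/6J for 10 generations, with sequence of the stem cells' strain retained around the targeted locus on chromosome 7. The wild type animals are described as littermates, and the labels do not state which arrays share a litter. Values are log2 expression values from GC-RMA, so a difference of 1 is a doubling.

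Oligodendrocytes wrap axons of the central nervous system in layers of membrane, and the stacked layers form compact myelin. Mbp and Mobp are basic proteins that lie on the cytoplasmic face of these layers and hold it together, while Mog and Mag are members of the immunoglobulin superfamily on the outer surface and on the layer next to the axon. Mal is a proteolipid that takes part in sorting of membrane proteins, Cldn11 forms the tight junctions between the turns of the sheath, and Cnp is a phosphodiesterase of the non-compacted cytoplasmic channels. Olig1 and Olig2 are basic helix-loop-helix transcription factors that specify the lineage and drive its maturation. In a homogenate of cortex, fewer oligodendrocytes and less RNA per oligodendrocyte cannot be told apart.

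Upstream sequence is shown for *Mobp*, *Mal* and *Cnp*, which moved closely together between mice, as the 250 bases before the annotated start (RefSeq, GRCm38.p6). Capitals mark ACAAAG or its reverse complement CTTTGT, the core recognised by SOX factors such as Sox10, searched on both strands.

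Mobp, chr9:120149492-120149741, plus strand: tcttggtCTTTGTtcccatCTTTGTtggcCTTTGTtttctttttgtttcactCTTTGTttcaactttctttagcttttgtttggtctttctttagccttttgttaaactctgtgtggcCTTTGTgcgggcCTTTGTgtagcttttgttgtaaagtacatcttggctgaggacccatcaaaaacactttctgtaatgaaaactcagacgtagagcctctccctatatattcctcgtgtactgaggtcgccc

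Mal, chr2:127656696-127656945, minus strand: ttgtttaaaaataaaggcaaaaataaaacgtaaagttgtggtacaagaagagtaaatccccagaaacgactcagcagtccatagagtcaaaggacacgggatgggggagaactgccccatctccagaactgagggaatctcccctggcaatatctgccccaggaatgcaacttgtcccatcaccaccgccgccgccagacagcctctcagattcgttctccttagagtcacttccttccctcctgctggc

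Cnp, chr11:100574689-100574938, plus strand: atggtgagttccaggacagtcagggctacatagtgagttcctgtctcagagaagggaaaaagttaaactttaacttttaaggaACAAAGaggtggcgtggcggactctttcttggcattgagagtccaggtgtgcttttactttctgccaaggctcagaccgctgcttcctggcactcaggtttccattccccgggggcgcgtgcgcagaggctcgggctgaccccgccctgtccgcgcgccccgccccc

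The stretch before *Mobp* held 6 copies of this core, all in the orientation CTTTGT, the one before *Cnp* held 1, and the one before *Mal* held none. *Mbp* was not counted here, and *Olig1* was not in the promoter table. Of the 9 promoters of the other 7 member genes, 4 had the core, against 16.5% of 32851 promoters of the same length. These were 1 each of *Cnp* and *Mobp* and 2 of the 3 of *Mag*, which overlap and share a single copy. CAGCTG, an E-box of the kind that Olig2 and other basic helix-loop-helix factors bind, was in 0 of the 9 and in 13.0% of all promoters. *Mobp* and *Mal*, which were the closest pair across mice, differed in the letters of this window. A match describes the letters only.

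All 10 arrays were alike in depth of signal, with array medians between 3.01 and 3.14 and a lowest correlation between any pair of arrays of 0.994. The arrays carry no counts, and their number limits the precision. The *Gprc5b* probe set that led to the study's splice variant averaged 6.16 ± 0.87 in mice labelled null and 7.39 ± 0.30 in mice labelled wild type (SD, n = 5 each), a difference of −1.23 (SE 0.36, adjusted p = 0.999 by limma). This direction is opposite to that of the study's tables, and to that of its RT-PCR with primers over this probe set. The 2 probe sets of *Apbb1*, which lie outside the skipped exon and check nothing about it, were higher in mice labelled null by 0.11 and 0.26. Here too the direction is opposite to that in the study's tables. For *Gprc5b* and *Apbb1* alike, those tables give differences of about the same size with the sign reversed. The groups are therefore called by their labels throughout, the files do not settle which genotype each label stands for, and every difference would change its sign if the labels were exchanged. The *Apbb1* probe sets read 10.80 to 11.37 in mice labelled null against 10.85 to 11.13 in mice labelled wild type (1423892_at), and 11.30 to 11.51 in mice labelled null against 10.98 to 11.23 in mice labelled wild type (1423893_x_at). Signal from cells of the lineage was present in every mouse: 18 of the 21 probe sets had a mean of at least 5, and only 1 probe set each of *Mbp* and *Mobp* and the single probe set of *Olig2* were dimmer. Neuronal genes were bright as well (list means 9.44 to 9.78 in mice labelled null and 9.65 to 9.87 in mice labelled wild type), and 7 of the 8 measured choroid plexus genes had a mean under 5. The remaining choroid plexus gene, *Ttr*, had a mean of 6.29 and varied widely between mice. It read 4.99 in wild type replicate 2 and 7.84 in wild type replicate 1.

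Myelin genes differed little between the labelled groups. No probe set of the 9 genes passed an adjusted p of 0.05 (limma, adjusted p = 0.999 for each), and no mean differed by more than 1.43-fold. At an unadjusted p under 0.05, 4 of the 21 probe sets were lower in mice labelled null and 1 was higher. Over all probe sets the background was 2.43% lower and 1.24% higher, 3.67% in all. Among probe sets with a mean of at least 5 it was 5.30% lower and 1.14% higher, and of the members at that level 3 of 18 were lower and 0 were higher. Mean values were lower in mice labelled null for 17 of 21 member probe sets, where 50.2% of all probe sets and 65.5% of those with a mean of at least 5 were lower. The median difference of the 9 genes, each by its brightest probe set, was −0.17, beside −0.0004 over all probe sets and −0.05 over those with a mean of at least 5. Without wild type replicate 3, the array with the highest member values, the median difference of the 9 genes was −0.09.

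**Figure D1:**
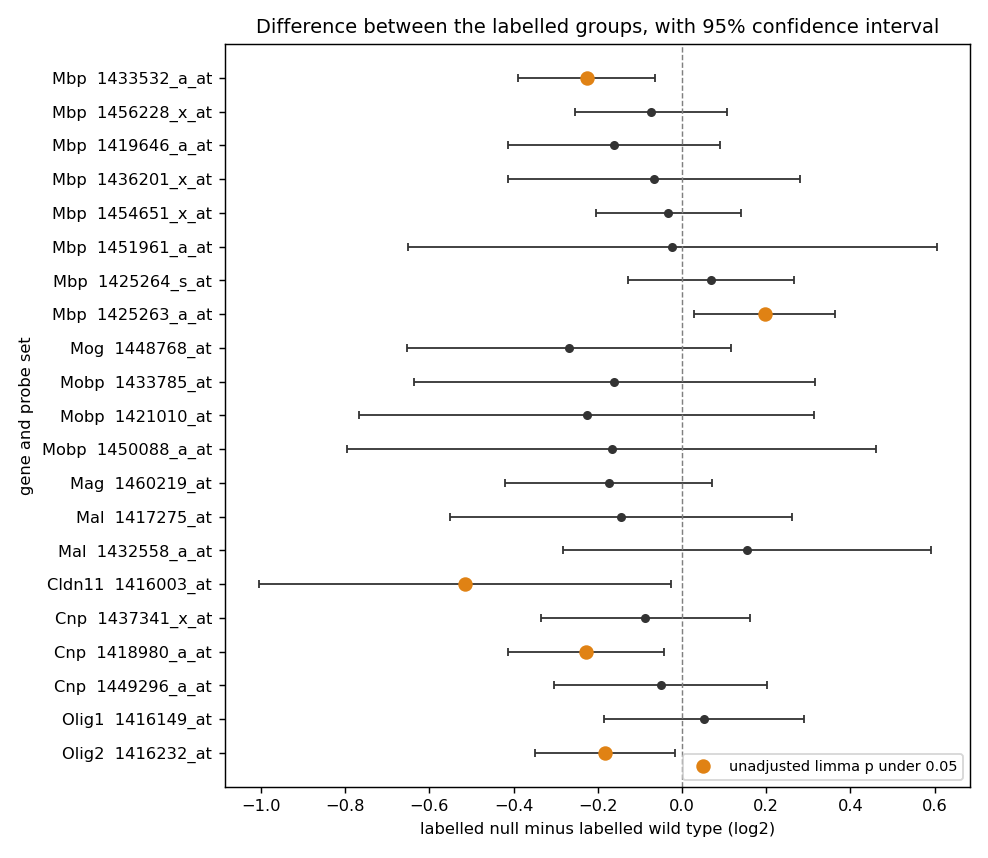
Mean of mice labelled null less the mean of mice labelled wild type (log2, x axis) for each of the 21 probe sets (y axis), with the 95% confidence interval from limma. Most points lie left of 0, and the 5 orange points are those with an unadjusted p under 0.05, of which 4 lie below 0.

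*Mbp* gave the one probe set whose groups did not overlap. Its brightest probe set, 1433532_a_at, read 13.86, 13.73, 13.87, 13.85 and 13.87 in mice labelled null, against 13.87, 14.18, 14.20, 14.14 and 13.91 in mice labelled wild type. All 5 mice labelled null lay below the lowest mouse labelled wild type, although the highest of them was nearly level with wild type replicate 1. The difference was −0.23 (SE 0.07, unadjusted limma p = 0.0111, adjusted p = 0.999), 1.17-fold, and the exact permutation p was 0.00794 (two-sided), the smallest that 5 against 5 arrays can give. Groups separated in this direction in 0.331% of all probe sets. With quantile normalization the difference was −0.11 and the unadjusted limma p was 0.138. The dimmest *Mbp* probe set, 1425263_a_at, went the other way, with 3.69, 3.78, 3.51, 3.71 and 3.64 in mice labelled null and 3.46, 3.38, 3.57, 3.65 and 3.30 in mice labelled wild type. Here the groups overlapped at their edges, and the difference was 0.20 (SE 0.08, unadjusted limma p = 0.0253, exact permutation p = 0.0556). The remaining 6 *Mbp* probe sets lay between −0.16 and 0.07, none with an exact permutation p below 0.238.

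*Mobp*, the other basic protein gene, varied far more between mice than between groups. Probe set 1433785_at read 11.15, 10.94, 10.72, 10.41 and 11.04 in mice labelled null, against 11.02, 10.69, 11.80, 10.83 and 10.71 in mice labelled wild type. One mouse, wild type replicate 3, stood well above the other 9, which overlapped fully. The differences of its 3 probe sets were −0.16 (SE 0.22), −0.23 (SE 0.24) and −0.17 (SE 0.28), each smaller than its standard error. They were 0.04, −0.0081 and 0.06 without wild type replicate 3.

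Among the surface proteins, *Mog* read 4.98, 4.65, 4.92, 4.79 and 5.13 in mice labelled null and 4.78, 5.25, 5.81, 4.99 and 4.98 in mice labelled wild type. *Mag* read 8.71, 8.75, 8.48, 8.49 and 8.47 in mice labelled null and 8.84, 8.47, 9.10, 8.72 and 8.64 in mice labelled wild type. In both genes wild type replicate 3 was the highest array and the rest of the 2 groups overlapped. The difference was −0.27 (SE 0.17, exact permutation p = 0.222) for *Mog* and −0.17 (SE 0.11, exact permutation p = 0.214) for *Mag*. These became −0.11 for *Mog* and −0.09 for *Mag* without wild type replicate 3. *Mag* is the only member gene on chromosome 7, which carries the retained sequence. The study did not map how far that sequence reaches, and its part in the *Mag* values was not tested.

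*Cldn11*, the tight junction gene, had the largest difference of the 9. It read 7.23, 7.20, 7.26, 6.65 and 7.80 in mice labelled null, against 7.43, 7.94, 8.28, 7.74 and 7.34 in mice labelled wild type. Null replicate 4 was far below every other mouse, and null replicate 5 was level with the wild type animals. The means of 7.23 ± 0.41 in mice labelled null and 7.75 ± 0.38 in mice labelled wild type (SD, n = 5 each) differed by −0.52 (SE 0.22, unadjusted limma p = 0.0410, adjusted p = 0.999, exact permutation p = 0.0556). Without null replicate 4 the unadjusted limma p was 0.0993, and without wild type replicate 3 it was 0.101.

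*Mal* read 9.88, 9.77, 9.61, 9.60 and 10.01 in mice labelled null and 9.73, 9.76, 10.66, 9.88 and 9.56 in mice labelled wild type (1417275_at), with wild type replicate 3 again apart from the rest. Its second probe set, 1432558_a_at, was highest in null replicate 1 instead, at 8.42 against 7.84 in wild type replicate 3. The 2 probe sets differed between the groups in opposite directions, by −0.15 (SE 0.18) and 0.15 (SE 0.20), with neither beyond its error. Both were positive without wild type replicate 3, at 0.04 and 0.23.

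For *Cnp*, the middle probe set 1418980_a_at read 8.62, 8.38, 8.21, 8.39 and 8.41 in mice labelled null, against 8.76, 8.71, 8.68, 8.57 and 8.42 in mice labelled wild type. Each mouse labelled null lay under the wild type mean, and the groups overlapped at their edges. The difference was −0.23 (SE 0.08, unadjusted limma p = 0.0209, adjusted p = 0.999, exact permutation p = 0.0476), and with quantile normalization the unadjusted limma p was 0.108. The brightest probe set, 1437341_x_at, and the dimmest, 1449296_a_at, differed by −0.09 (SE 0.11) and −0.05 (SE 0.11).

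The lineage factors behaved differently from one another. *Olig1* read 10.37, 10.43, 10.13, 10.22 and 10.75 in mice labelled null and 10.46, 10.20, 10.42, 10.27 and 10.27 in mice labelled wild type, a difference of 0.05 (SE 0.11, exact permutation p = 0.698). *Olig2*, a dim probe set, read 3.44, 3.40, 3.25, 3.32 and 3.59 in mice labelled null and 3.63, 3.61, 3.50, 3.75 and 3.43 in mice labelled wild type, a difference of −0.18 (SE 0.08, unadjusted limma p = 0.0350, adjusted p = 0.999, exact permutation p = 0.0476). The highest *Olig1* array was null replicate 5, and for neither factor was wild type replicate 3 the highest.

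**Figure D2:**
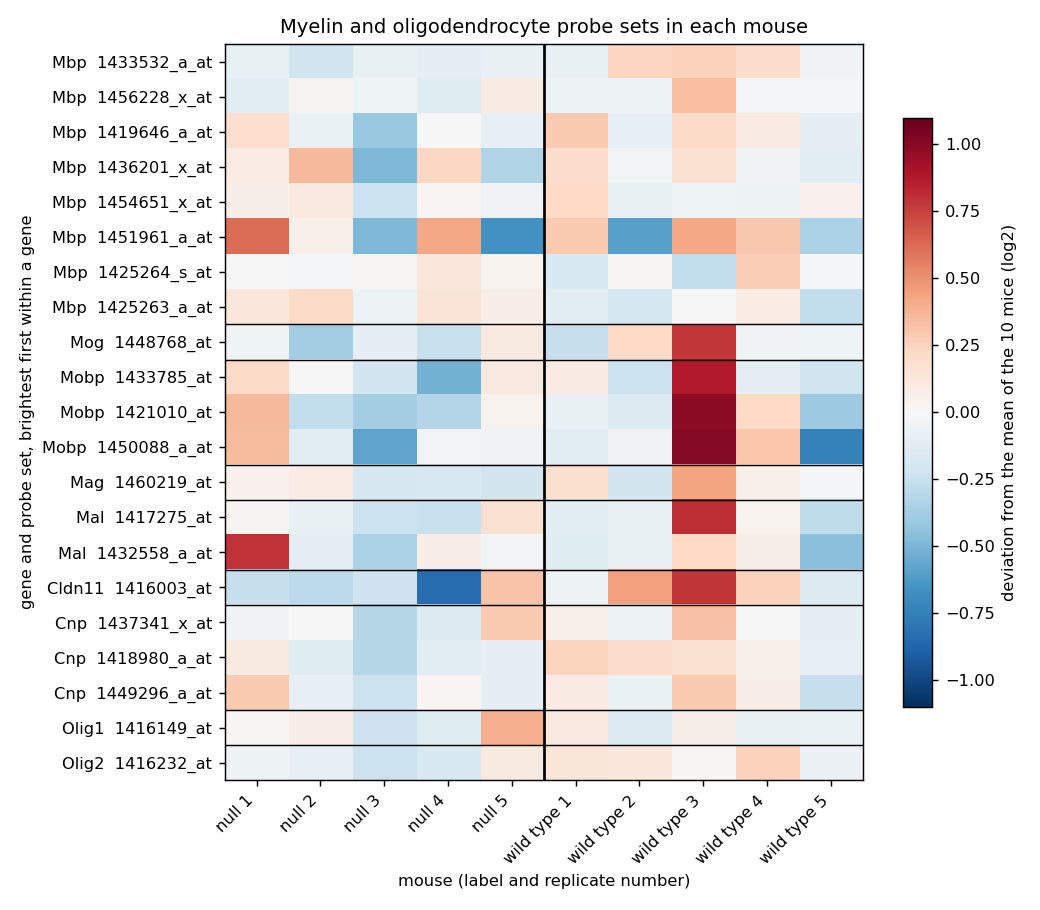
Deviation of each of the 21 probe sets from its own mean over the 10 mice (colour, log2), with probe sets in rows grouped by gene and mice in columns, labelled null left of the line and labelled wild type right of it. Wild type replicate 3 forms a red column through *Mog*, *Mobp*, *Mag*, *Mal* and *Cldn11*, and the *Mbp* rows do not follow one another.

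The main pattern in these genes was between mice and not between labels. Wild type replicate 3 was above the gene's own mean in 9 of 9 genes and the highest of the 10 mice in 7 of 9, with a mean deviation of 0.48. Its deviations were 0.87 for *Mobp*, 0.81 for *Mal*, 0.79 for *Cldn11* and 0.78 for *Mog*, then 0.43 for *Mag*, 0.32 for *Cnp* and 0.25 for *Mbp*. The transcription factors were near their own means in that mouse, at 0.07 for *Olig1* and 0.01 for *Olig2*. At the other end were null replicate 4, with a mean deviation of −0.29, and null replicate 3, at −0.20. In these 2 mice, as in wild type replicate 5, all 9 genes were below their means. The next highest mouse after wild type replicate 3 was one labelled null, replicate 5, at 0.13. The spread within groups of *Mobp* (1433785_at), *Cldn11* and *Mal* (1417275_at) was 0.38, 0.40 and 0.33 (SD), beside a median of 0.18 over 7827 probe sets with a mean of at least 5, and that of *Mbp* 1433532_a_at was 0.12.

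That array was not extreme over the genome. Among 3545 genes with a mean of at least 7, it was the highest of the 10 in 10.4% and the lowest in 5.98%, while null replicate 5 was the highest in 29.8% and wild type replicate 2 in 22.8%. Markers of other cells moved with it, however. The striatal genes, 7 of 12 measured, had a mean deviation of 0.36 there, also the highest of 10, and *Penk*, the enkephalin precursor of striatal projection neurons, read 7.69 there against 6.01 to 6.55 in the other 9 mice. The striatal list ranged from 4.98 to 5.13 in mice labelled null and from 5.05 to 5.49 in mice labelled wild type. *Ppp1r1b* was also highest in wild type replicate 3, at 5.60, while *Tac1*, *Rgs9*, *Rasd2* and *Pde10a* were each higher in another mouse. *Drd2*, a defining gene of striatal projection neurons, was at 1.94 in wild type replicate 3 and between 1.79 and 2.01 in the others. It was too dim to be informative. Endothelial genes (11 of 12 measured, mean deviation 0.19 there, list means 4.17 to 4.37 in mice labelled null and 4.26 to 4.50 in mice labelled wild type) were also highest in that mouse. So were astrocyte genes (13 of 13 measured, 0.12 there, 8.86 to 9.05 in mice labelled null and 8.88 to 9.07 in mice labelled wild type), and choroid plexus genes (−0.05) were not. The part of these cells in the myelin values was not tested.

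**Figure D3:**
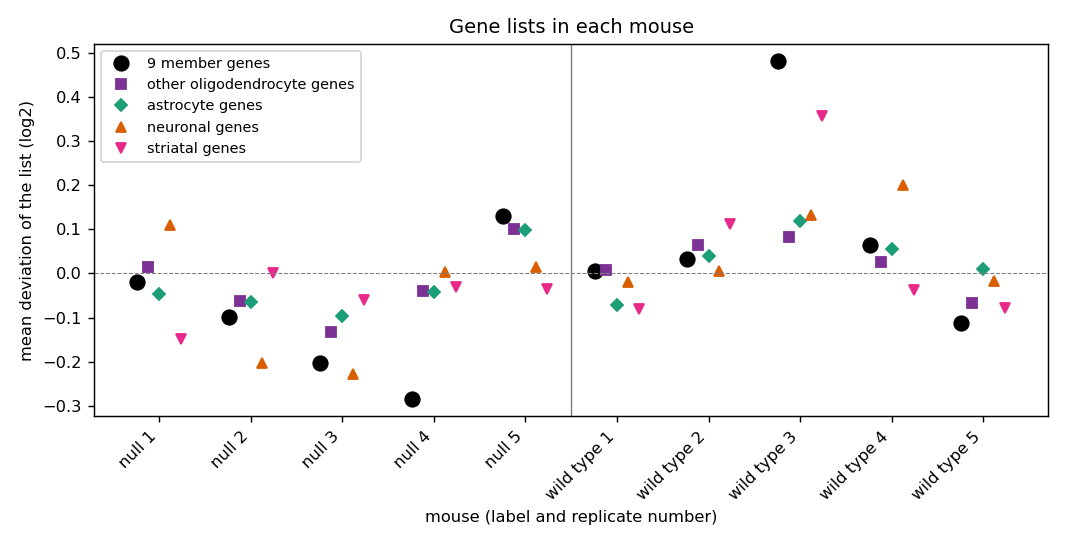
Mean deviation of each gene list from its own mean over the 10 mice (y axis, log2) in each mouse (x axis, labelled null left of the line). The 9 member genes and the striatal genes are both highest in wild type replicate 3, at 0.48 and 0.36, and the other lists stay within 0.23 of 0.

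Across the 10 mice the genes were mostly positively correlated. Over the 36 pairs of the 9 genes, the median Pearson r was 0.55, with a range of −0.22 to 0.91, and 35 pairs were positive. Over 12105660 pairs of 4921 genes with a mean of at least 5, the median was 0.12 and 60.0% were positive. Of the 36 pairs, 13 had an unadjusted permutation p under 0.05 by Pearson's r. After Benjamini-Hochberg adjustment over the 36 pairs, 9 passed by Pearson's r and 0 by Spearman's rho (lowest adjusted p = 0.0689). *Mobp*, *Mal*, *Cldn11* and *Cnp* were each in 3 of the 9, and *Olig2* was in none.

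The closest pair was *Mobp* and *Mal* (r = 0.91, permutation p = 0.0018, adjusted p = 0.0240, and rho = 0.77, permutation p = 0.0127, n = 10), with r = 0.65 once the 2 mice farthest from the *Mobp* median, null replicate 4 and wild type replicate 3, were left out. *Mal* and *Cnp* had r = 0.82 (adjusted permutation p = 0.0198) and rho = 0.82 (adjusted permutation p = 0.0709), and r = 0.63 without the 2 farthest mice. *Cnp* and *Olig1*, an enzyme of the sheath and a factor of the lineage, had r = 0.82 and rho = 0.79 (adjusted permutation p = 0.0240 and 0.0742), and r = 0.83 without the 2 farthest. *Mog* and *Cldn11* had r = 0.82 and rho = 0.84 (adjusted permutation p = 0.0240 and 0.0689), and r = 0.78 without the 2 farthest. Over the 9 pairs that passed, r without the 2 farthest mice was between 0.46 and 0.83, and wild type replicate 3 was one of the 2 mice in each. *Mbp* and *Olig1* were the only pair below 0 (r = −0.22, permutation p = 0.548, rho = −0.20, permutation p = 0.581).

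Much of this covariation rested on wild type replicate 3. Without it the median r of the 36 pairs was 0.38, 30 were positive and 1 pair passed, *Cnp* and *Olig1* (r = 0.93), while the median over all gene pairs was 0.13. *Mobp* and *Mog* had r = 0.70 with that mouse and 0.02 without it, and *Mog* and *Mag* had 0.43 with it and −0.55 without it. Pairs other than *Cnp* and *Olig1* with r above 0.70 without it were *Mal* and *Cnp* (0.80), *Cldn11* and *Olig2* (0.76), *Mog* and *Cldn11* (0.73), *Mbp* and *Mog* (0.72), and *Mal* and *Olig1* (0.71). Of these, *Cldn11* and *Olig2* had 0.62 and *Mal* and *Olig1* had 0.43 with all 10 mice. On deviations from the labelled group means the median r was 0.53 and 9 pairs passed, 8 of them among the 9 above. With quantile normalization of the values the median was 0.38 and 0 pairs passed. The *Cnp* values in these pairs, among them that with *Olig1*, are those of probe set 1437341_x_at alone. In null replicate 5, the highest mouse for *Olig1*, that probe set read 11.78 (mean 11.5). There *Cnp* 1418980_a_at read 8.41 (mean 8.52) and 1449296_a_at read 7.72 (mean 7.83), each below its mean.

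**Figure D4:**
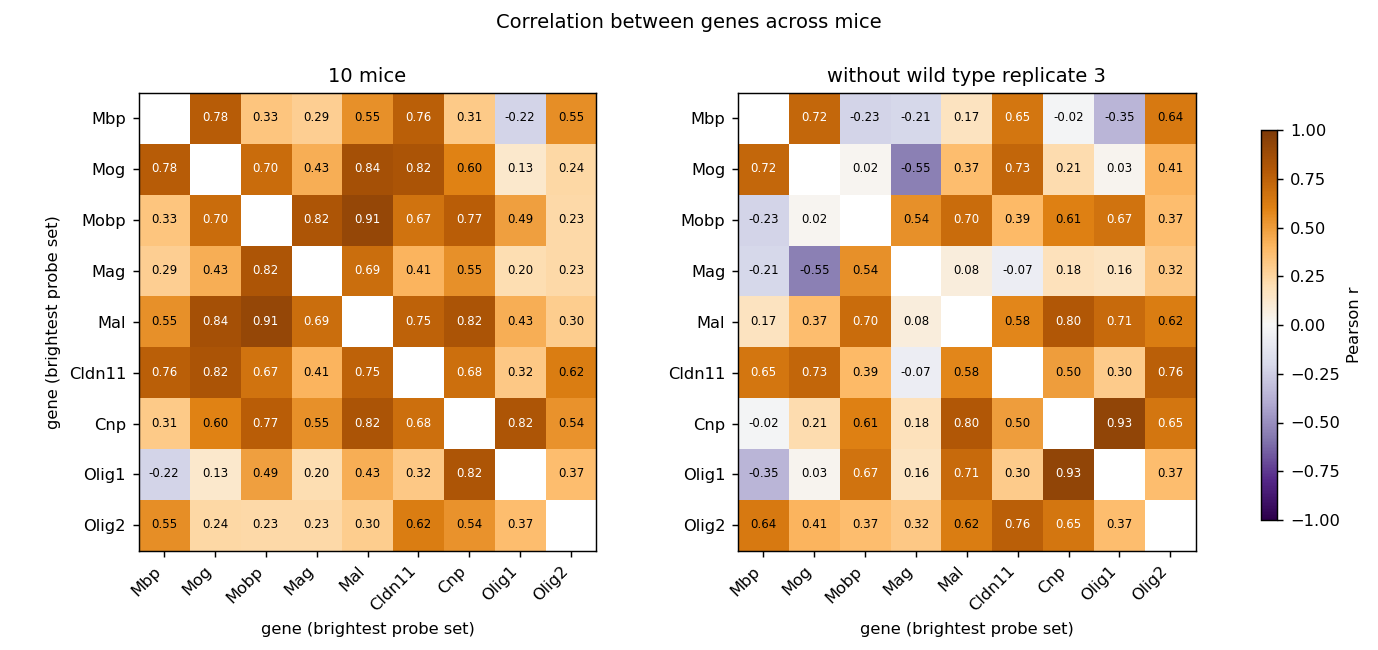
Pearson r between the 9 genes (brightest probe set of each, both axes) over 10 mice on the left and without wild type replicate 3 on the right. The median of the 36 pairs is 0.55 on the left and 0.38 on the right, where the *Mag* row runs from −0.55 with *Mog* to 0.54 with *Mobp*.

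Single genes followed the mean of the other 8 to different degrees. *Mal* did so most closely (r = 0.92, 0.79 without wild type replicate 3), then *Mobp* (0.84 and 0.55), *Cnp* (0.83 and 0.74), *Cldn11* (0.83 and 0.75) and *Mog* (0.80 and 0.43). *Mag* had r = 0.61, and 0.07 without that mouse. *Olig1* (0.40 and 0.51) and *Olig2* (0.47 and 0.81) were higher without it. These values are descriptions over 10 or 9 mice.

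Probe sets of one gene differed in how closely they moved together. The 3 *Mobp* probe sets moved together (r from 0.74 to 0.93, median 0.89), and this median was at percentile 99.7 of 4956 genes with several probe sets. Without wild type replicate 3 their r was 0.37 to 0.85, and the median of 0.67 was at percentile 90.5. *Cnp* had a median r of 0.49 over 3 pairs and *Mal* had 0.43 over 1 pair, beside a median of 0.20 over those genes, or 0.32 over 1539 genes with probe sets at a mean of at least 5. For *Mbp*, the median over 28 pairs was 0.08, with a range of −0.58 to 0.75 and 11 pairs below 0, at percentile 37.5 of all genes and percentile 22.1 of those at a mean of at least 5. Without wild type replicate 3 the *Mbp* median was 0.03, with 13 pairs below 0. A gene's probe sets share neither their bases nor their transcripts in every case. The names of 8 of the 21 end in _a_at, which marks probes shared by transcripts of one gene, 4 end in _x_at and 1 in _s_at, which mark probes that can match other genes.

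Within *Mbp*, 4 probe sets varied together, 1419646_a_at, 1436201_x_at, 1454651_x_at and 1451961_a_at, with r from 0.48 to 0.75 over their 6 pairs, and from 0.55 to 0.81 without wild type replicate 3. This grouping was made after the values were seen. The 2 brightest, 1433532_a_at and 1456228_x_at, did not follow them (r from −0.38 to 0.24 over 8 pairs, 4 of them below 0, and from −0.62 to 0.06, 7 below 0, without wild type replicate 3). With one another they had r = 0.43, and −0.10 without that mouse. Probe set 1425264_s_at was negatively correlated with 6 of the other 7, the lowest being −0.58 with 1456228_x_at. Without that mouse it was negative with 4 of the 7, and r with 1456228_x_at was −0.03. The widest spread was in 1451961_a_at, which read 11.26, 10.69, 10.15, 11.07 and 9.97 in mice labelled null and 10.92, 10.04, 11.06, 10.93 and 10.29 in mice labelled wild type. High and low mice were found under both labels, and the within-group SD of 0.51 was at percentile 97.9 of probe sets with a mean of at least 5. In the same mice, 1454651_x_at varied with an SD of 0.13.

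To set probe sets of one gene against one another, each was taken minus the brightest of its gene in the same mouse, in 12 comparisons, and the groups were compared. This removes only variation that both probe sets share, and in 10 of the 12, among them all those of *Mbp*, the SD over the 10 mice was wider after the subtraction than before it (for 1425263_a_at, 0.26 after and 0.16 before). In 2 of the 12, both in *Mbp*, the groups did not overlap. For 1425263_a_at minus 1433532_a_at, the values were −10.17, −9.95, −10.36, −10.14 and −10.22 in mice labelled null, against −10.41, −10.81, −10.63, −10.49 and −10.61 in mice labelled wild type. All mice labelled null lay above all mice labelled wild type, and the difference was 0.42 (exact permutation p = 0.00794, two-sided). This sets a dim probe set (mean 3.57) against one of the brightest on the array (mean 13.95), and it is made up of the opposite differences of 0.20 and −0.23 given above for the same mice, so it is no further evidence of either. With a floor at 4 the difference was 0.23, all of it from 1433532_a_at. For 1425264_s_at minus 1433532_a_at, the values were −6.73, −6.60, −6.72, −6.59 and −6.69 in mice labelled null, against −6.90, −7.04, −7.34, −6.74 and −6.80 in mice labelled wild type. The order was the same, with wild type replicate 4 close to the mice labelled null, and the difference was 0.29 (exact permutation p = 0.00794, two-sided, or 0.0714 after quantile normalization). The size of each value is an offset between probe sets and has no meaning of its own. Since 1433532_a_at enters both, they are not independent, and both share its lower values in mice labelled null. The other 10 comparisons had exact permutation p-values of 0.151 to 0.992, the 5 remaining *Mbp* ones all with positive differences of 0.06 to 0.20.

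**Figure D5:**
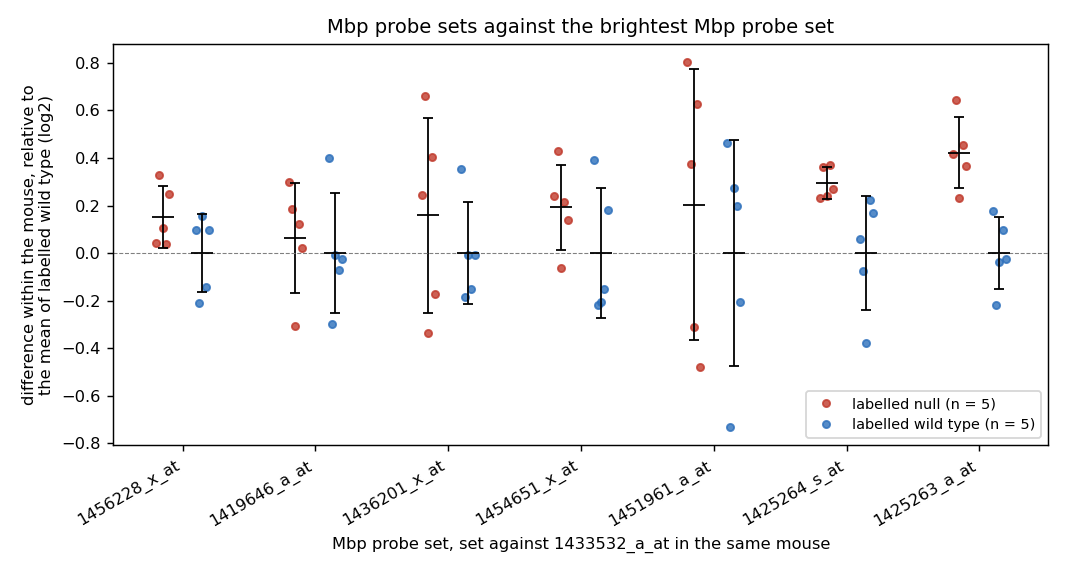
Each *Mbp* probe set minus 1433532_a_at in the same mouse, relative to the mean of mice labelled wild type (y axis, log2), for 7 probe sets (x axis). Points are mice, red labelled null and blue labelled wild type (n = 5 each), with mean and SD, and the groups separate in the 2 probe sets at the right, by 0.29 and 0.42.

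Measures of RNA quality and of variation over the whole array moved with some of these probe sets. The 3′ minus 5′ difference of the *Actb* control probe sets, which rises as RNA is degraded or copied incompletely, was −0.03 to 0.37 in mice labelled null and −0.03 to 0.35 in mice labelled wild type, and that of *Gapdh* was −0.07 to 0.12 in mice labelled null and −0.04 to 0.27 in mice labelled wild type. The groups overlapped in both (exact permutation p = 0.643 and 0.325). Over 66 relations of 21 probe sets and their 9-gene mean with 3 array measures, 10 had an unadjusted permutation p under 0.05 and none passed adjustment (lowest adjusted p = 0.284). The closest was *Mal* 1432558_a_at with the *Actb* measure (r = −0.76, permutation p = 0.00708, rho = −0.85, permutation p = 0.00299, adjusted permutation p = 0.284 for r). A first principal component was taken over 7809 probe sets with a mean of at least 5, outside the 9 genes, and held 44.9% of their variance. *Cldn11* had r = −0.76 and rho = −0.84 with this component (permutation p = 0.0110 and 0.00368). *Mbp* 1451961_a_at had r = 0.73 and rho = 0.67 with the same component (permutation p = 0.0212 and 0.0387). The 9-gene mean had r = −0.19 with the *Gapdh* measure, −0.27 with the *Actb* measure and −0.48 with the component (permutation p = 0.615, 0.466 and 0.161, and rho = −0.15, −0.31 and −0.65, permutation p = 0.682, 0.387 and 0.050). Their part in the myelin values was not tested.

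Further genes of the same cells were taken from lists. Of 48 further genes of myelin and mature oligodendrocytes, 38 were measured by a probe set of their own. Of these, 19 had a mean under 5. At an unadjusted limma p under 0.05, 0 of the 38 were lower and 1 was higher. Over all probe sets, 2.43% were lower and 1.24% were higher. The median difference of the 38 was −0.02. The one that was higher, *Gal3st1*, a sulfatide synthesis enzyme, was dim (2.75 ± 0.11 in mice labelled null and 2.60 ± 0.07 in mice labelled wild type, SD, n = 5 each). *Ugt8a*, which makes galactocerebroside, the main glycolipid of myelin, read 8.74, 8.63, 8.24, 8.08 and 9.23 in mice labelled null and 8.82, 9.25, 9.06, 8.72 and 8.86 in mice labelled wild type. It followed the 9-gene mean with r = 0.72, and 0.88 without wild type replicate 3. *Ndrg1*, *Gpr37*, *Arsg* and *Rtn4* had differences of −0.14 (SE 0.07), −0.27 (SE 0.16), −0.08 (SE 0.05) and −0.10 (SE 0.06). Of these, *Gpr37* (mean 3.65) and *Arsg* (mean 2.17) were dim. Over the 38 genes, the median r with the 9-gene mean was 0.39, beside 0.27 over 3545 genes with a mean of at least 7. Those are brighter than many of the 38, so these medians come from unlike levels. The mean deviation of the 38 in wild type replicate 3 was 0.08.

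Of 21 lineage factors and precursor genes, 15 were measured, 1 of them lower and 0 higher at an unadjusted limma p under 0.05, where 2.43% of all probe sets and 5.30% of those with a mean of at least 5 were lower. The lower one was *Sox6*, which holds precursors back from maturing, at −0.40 (SE 0.16). *Lpar1*, a lysophosphatidic acid receptor of the maturing cells, differed by −0.15 (SE 0.13), and *Cspg4*, the NG2 proteoglycan of precursors, by 0.13 (SE 0.07). *Nkx2-2* differed by −0.26 (SE 0.18), *Bmp4* by 0.08 (SE 0.07) and *Myt1* by −0.07 (SE 0.07). Of the 15 genes, 11 had a mean under 5. Among them were *Sox6* (4.12), *Cspg4* (2.52), *Nkx2-2* (2.58), *Bmp4* (2.41) and *Myt1* (1.43). Genes of neurofilaments and of the axon, which myelin surrounds, had 4 of 12 lower, and the median difference of the 12 was −0.07. The 4 were the neurofilament chains *Nefh* (−0.43, SE 0.07), *Nefm* (−0.28, SE 0.10) and *Nefl* (−0.20, SE 0.07), and *Vamp1* (−0.34, SE 0.07). Astrocyte genes had 2 of 13 lower, neuronal genes 4 of 11 (*Nefl* is in both lists), endothelial genes 1 of 11, and microglial genes 0 of 11. The lower share over all probe sets, and over those with a mean of at least 5, was again 2.43% and 5.30%. No list had a gene with an adjusted limma p under 0.05.

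Likeness to the 9-gene mean across mice was ranked among 3545 genes with a mean of at least 7. The 10 highest, none of them in these lists, were *Tbl1xr1* (r = 0.93), *Gabrd* (0.91), *Hdgf* (0.89), *Zscan26* (0.89), *Gnai2* (0.88), *Tfb2m* (0.88), *Psat1* (0.88), *Cfap36* (0.87), *Pik3r4* (0.87) and *Degs1* (0.86), where 1% of all genes were above 0.81. Dimmer genes were not ranked, and of the lists *Penk* (mean 6.43) and *Cdk18* (mean 2.58) had r = 0.87, as high as some of the 10. Each of the 10 was highest in wild type replicate 3, and 8 of them were lowest in null replicate 4. The 9-gene mean was itself highest in the former and lowest in the latter, so the ranking largely fixed this in advance. Without wild type replicate 3, their r was between 0.66 for *Gnai2* and 0.88 for *Cfap36*. The 5 least alike were *Mvb12b* (r = −0.89), *Tff1* (−0.85), *Arih1* (−0.84), *Hspg2* (−0.78) and *Zfp35* (−0.78). All 5 were lowest in wild type replicate 3, which the ranking likewise largely fixed. For *Mvb12b* that array read 8.51, against 9.35 to 9.88 in the other mice.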

How the data were processed

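Cortical RNA of 10 mice was hybridised to 1 array each, and the log2 values used are those the authors deposited, made with GC-RMA (version not given in the sources used here), which corrects background by probe GC content and normalizes between arrays. With 64 control probe sets set aside, 22626 remained. By the platform annotation 20380 have 1 gene, 691 several and 1555 none, and 20351 matched RefSeq GRCm38.p6. Groups follow the labels. The member genes and the marker lists were chosen with earlier results of these data known. The difference between the labels was taken per probe set by limma 3.58.1 (lmFit and eBayes, R 4.3.3), with Benjamini-Hochberg adjustment over all 22626. Single values were compared by exact permutation over 252 splits (two-sided), and correlations across mice by permutation with 100000 resamples (scipy 1.17.1). Each gene is represented by its brightest probe set (highest mean). All member probe sets are named, with up to 6 genes of smallest p from each other oligodendrocyte list, and the 10 genes most and 5 least like the members. Alternatives were median centring, quantile normalization, a mean of at least 5, a floor at 4, an intensity trend, array weights, the replicate number as a block, the methods' t-test and leaving out each array. The fit was tested on simulated data. The same-numbered arrays deviated together with correlations of 0.46, 0.08, 0.05, 0.08 and 0.07, so the numbers were not taken as pairs. The p-values set each difference or correlation against the variation between these animals. In limma that variance is moderated over all probe sets.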

Additional observations from a re-analysis of the deposited data

Results flagged for a closer look

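Over the 42 groups of 5 arrays formed by the 21 probe sets and 2 labels, 2 had an array far from the other 4, and chance alone flags about 1 in 20 groups. In *Mbp* 1433532_a_at, null replicate 2 was the lowest of its group at 13.73, with the nearest array at 13.85, a gap of 0.897 of the range of the group. In *Mbp* 1456228_x_at, wild type replicate 3 was the highest of its group at 13.28, with the nearest array at 12.93, a gap of 0.894 of the range.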

How the results depend on the processing

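Of 234 values under other settings, excluding those that leave out an array, 219 kept their direction and their side of the threshold of adjusted or exact p, or for a count stayed within 1.5 times. For the differences of single probe sets between the labels, with adjusted p = 0.999 by limma in the main fit, that side was nearly fixed in advance. Of the 219, 25 still changed in size by over 1.5 times, 14 with quantile normalization, 9 with array weights and 2 with a floor at 4. They include *Mbp* 1433532_a_at (−0.11 with quantile normalization), *Mbp* 1451961_a_at (−0.12 with array weights), *Mal* 1432558_a_at (0.074 with array weights), *Olig1* (0.0036 with array weights), and the median difference of the 9 genes (−0.11 with quantile normalization). With quantile normalization, *Mbp* 1454651_x_at, *Mbp* 1451961_a_at and *Cnp* 1449296_a_at turned to 0.0045, 0.018 and 0.012, and *Mbp* 1419646_a_at minus 1433532_a_at within a mouse to −0.0049. The 4 lower probe sets at an unadjusted p under 0.05 became 2 with quantile normalization, a floor at 4 or the replicate block, and the 1 higher became 0 with a mean of at least 5, a floor at 4 and array weights. Of the 9 pairs that passed, 0 did so with quantile normalization and 4 with the mean over all probe sets of a gene. For 1425264_s_at minus 1433532_a_at within a mouse, the exact permutation p was 0.0714 with quantile normalization. With the replicate block, this comparison and that of 1425263_a_at had a sign-flip permutation p of 0.0625, the smallest that 5 pairs allow, at unchanged differences of 0.29 and 0.42. The cause was not tested.

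Leaving out 1 array gave 1 to 4 lower probe sets. There was 1 when null replicate 3 was omitted, and 2 when the omitted array was null 2, null 4, wild type 1 or wild type 4. The number higher was 0 to 1, and it was 0 when null 2, null 4, wild type 2 or wild type 5 was omitted. Pairs that passed numbered 1 to 11. Their number was 1 when wild type 3 was omitted, 2 for wild type 2, 3 for null 3, 5 for null 4 and for wild type 1, and 11 for null 5. The median difference of the 9 genes ranged from −0.23 to −0.09. Group differences that changed sign ranged from −0.11 to 0.00045 for *Mbp* 1456228_x_at, −0.16 to 0.050 for 1436201_x_at, −0.065 to 0.023 for 1454651_x_at, −0.18 to 0.14 for 1451961_a_at, −0.24 to 0.036 for *Mobp* 1433785_at, −0.37 to 0.065 for 1450088_a_at, −0.23 to 0.039 for *Mal* 1417275_at, −0.024 to 0.26 for 1432558_a_at, −0.13 to 0.015 for *Cnp* 1449296_a_at and −0.040 to 0.11 for *Olig1*. Within a mouse, the ranges that crossed 0 were −0.0094 to 0.16 for *Mbp* 1419646_a_at, −0.12 to 0.0050 for *Mobp* 1421010_at, −0.14 to 0.094 for 1450088_a_at and −0.039 to 0.14 for *Cnp* 1449296_a_at, each minus the brightest probe set.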
